A study of Homo sapiens with 27 samples.

Results

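The miR-181 family was followed through 27 small RNA libraries of cells with and without the RNA exonuclease USB1. Its members were taken by name. They are hsa-miR-181a-5p, hsa-miR-181b-5p, hsa-miR-181c-5p and hsa-miR-181d-5p, the arms cut from the 5′ side of their hairpins, and hsa-miR-181a-2-3p, the arm from the 3′ side of one of the hairpins that give miR-181a-5p (the prefix hsa-, for human, is left out below). These are 5 of the 2276 mature miRNAs listed in at least 1 of the 9 count tables. The 5 remaining 3p arms of the same hairpins were read beside them, and miR-181c-3p was the best measured of these in hESCs.

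The human embryonic stem cell (hESC) line H1 gave 5 groups of 3 libraries. WT cells carried no edit. USB1 mutant cells carried a CRISPR/Cas9 loss-of-function deletion in USB1 and had been grown from picked colonies. The iUSB1 cells were mutant cells with a doxycycline-inducible transgene for the WT USB1 protein at the AAVS1 safe harbour locus, taken without Dox (-Dox) or with Dox (+Dox). The last hESC group was mutant cells with a short hairpin against PAPD5 (shPAPD5). PAPD5 is a non-canonical poly(A) polymerase, which extends the 3′ ends of small RNAs with adenosines. K562, an established leukaemia line labelled CML, gave 4 groups of 3 libraries. Control and USB1 KO cells were sequenced as such and after knockdown of PARN by a short hairpin (shPARN). PARN is a 3′ exonuclease that removes adenosines. The KO cells came from single-cell clones, and in both lines an effect of the clone cannot be told apart from that of USB1 loss. No group was labelled as carrying a non-targeting hairpin, so an effect of PAPD5 or PARN knockdown cannot be told apart from any other effect of a hairpin. The RNA of USB1, PAPD5 and PARN was not analysed here.

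A miRNA is cut from a hairpin precursor, and one arm is usually kept in an Argonaute protein, where bases 2 to 8 (the seed) pair with target mRNAs. The miR-181 hairpins lie in pairs at 3 places in the genome, so miR-181a-5p and miR-181b-5p each have more than one source while miR-181c and miR-181d have a single hairpin each. The family is best known from blood, where miR-181a sets the sensitivity of developing T cells to antigen and is abundant in early lymphoid cells. USB1 trims the 3′ ends of U6 small nuclear RNA, and the study asked whether it also protects miRNAs from the adenosine tails that PAPD5 adds.

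The mature sequences are printed because the members differ by very few bases. They are from RefSeq (GRCh38.p14), which held all 5 members, and the capitals mark the seed.
miR-181a-5p: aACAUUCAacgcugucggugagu
miR-181b-5p: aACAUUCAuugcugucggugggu
miR-181c-5p: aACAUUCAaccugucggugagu
miR-181d-5p: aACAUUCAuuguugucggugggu
miR-181a-2-3p: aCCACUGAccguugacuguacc
miR-181c-3p: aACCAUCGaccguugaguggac
The 5p arms share 1 seed, which 5 of 2370 mature sequences (0.211%) in the RefSeq table hold. The fifth is miR-4262, which was listed in none of the 9 count tables. Counting from 1 at the 5′ end, miR-181b-5p differs from miR-181d-5p only by C12U, so that 22 of 23 bases are identical. miR-181a-5p differs from miR-181b-5p by A9U, C10U and A21G, and from miR-181d-5p by those changes and C12U. miR-181c-5p has 22 bases and matches miR-181a-5p except for a missing base 11. A read of one member that carries sequencing errors at these bases can therefore fall on another, and how reads matching several members were shared out is not given in the sources used here. Counts of single members are uncertain to that extent, most of all between miR-181b-5p and miR-181d-5p. The seed of miR-181a-2-3p differs from that of the 5p arms, and miR-181c-3p has another seed.

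The hairpins were placed on GRCh38.p14. MIR181B1 (chr1:198858873-198858982, minus strand) and MIR181A1 (chr1:198859044-198859153, minus strand) start 171 bases apart in an intron of the long non-coding RNA gene MIR181A1HG. MIR181A2 (chr9:124692442-124692551, plus strand) and MIR181B2 (chr9:124693710-124693798, plus strand) start 1268 bases apart in an intron of MIR181A2HG, on the strand opposite to an intron of NR6A1. MIR181C (chr19:13874699-13874808, plus strand) and MIR181D (chr19:13874875-13875011, plus strand) start 176 bases apart in an intron of NANOS3. miR-181a-5p is the same from MIR181A1 and MIR181A2, whereas miR-181a-2-3p comes from MIR181A2 alone.

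The depth of a library ran from 12258450 to 35734485 miRNA counts among the hESC libraries. The K562 libraries were shallower, at 1530929 (KO library 3) to 13183152. Sums over a list of miRNAs take those that the table of a group lists. For pluripotency, 8 miRNAs of the miR-302 and miR-371 to miR-373 clusters were taken. All were listed in the hESC groups and K562 control, but 4 in KO and 3 in each shPARN group. Their sum was 180695 to 380928 CPM (counts scaled to 1000000 a library) in hESC libraries. In K562 libraries it was 0.485 to 21.0 CPM except control libraries 1 and 2, at 713 and 741 CPM, which is 0.372% and 0.387% of the WT hESC median. K562 libraries held 7310 to 10427 CPM of 6 erythroid and blood cell miRNAs and hESC libraries 91.1 to 282. Mutant library 1 stood apart from mutant libraries 2 and 3 (chi-squared per degree of freedom over miRNA counts of 2090 and 1940, against 83.6 between those 2). WT library 1 also stood apart from WT libraries 2 and 3 (577 and 611, against 22.2). These values grow with depth and are not compared between groups. Differences of the tested members between mutant and WT are given with and without library 1 of these groups. Values of the marker and blood lists are given only with all libraries. Whether libraries of 1 group were grown as separate cultures is not in the labels, and p-values measure only the spread between these libraries. The K562 control table names its columns WT, as the hESC WT samples are titled, and was tied to K562 control by the samples' descriptions. Its libraries take their numbers from those columns.

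The members were rare in hESCs (see the plot of hESC levels). Levels here are CPM after TMM scaling within the line, with the mean ± SD of 3 libraries. In WT cells miR-181d-5p stood at 33.0, 30.6 and 25.8 CPM in libraries 1, 2 and 3 (mean 29.8 ± 3.68, n = 3), from 354 to 609 counts. The other 5p arms were lower. miR-181a-5p measured 11.4, 6.90 and 6.12 CPM in the same libraries (mean 8.14 ± 2.84), and miR-181b-5p 11.9, 5.76 and 7.80 CPM (mean 8.48 ± 3.12). Their ranges overlapped each other, and all of their libraries lay below all miR-181d-5p libraries. miR-181a-2-3p gave 8.41, 4.05 and 4.16 CPM (mean 5.54 ± 2.49). WT library 1 was the highest of the WT libraries for each of these 4 members. miR-181c-5p was near the limit of detection, with 5, 1 and 8 counts, while the opposite arm of its hairpin, miR-181c-3p, held 6.18, 6.14 and 7.65 CPM (mean 6.66 ± 0.862). The counts of different miRNAs were not calibrated against one another, so these are levels in the libraries.

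**Figure D1:**
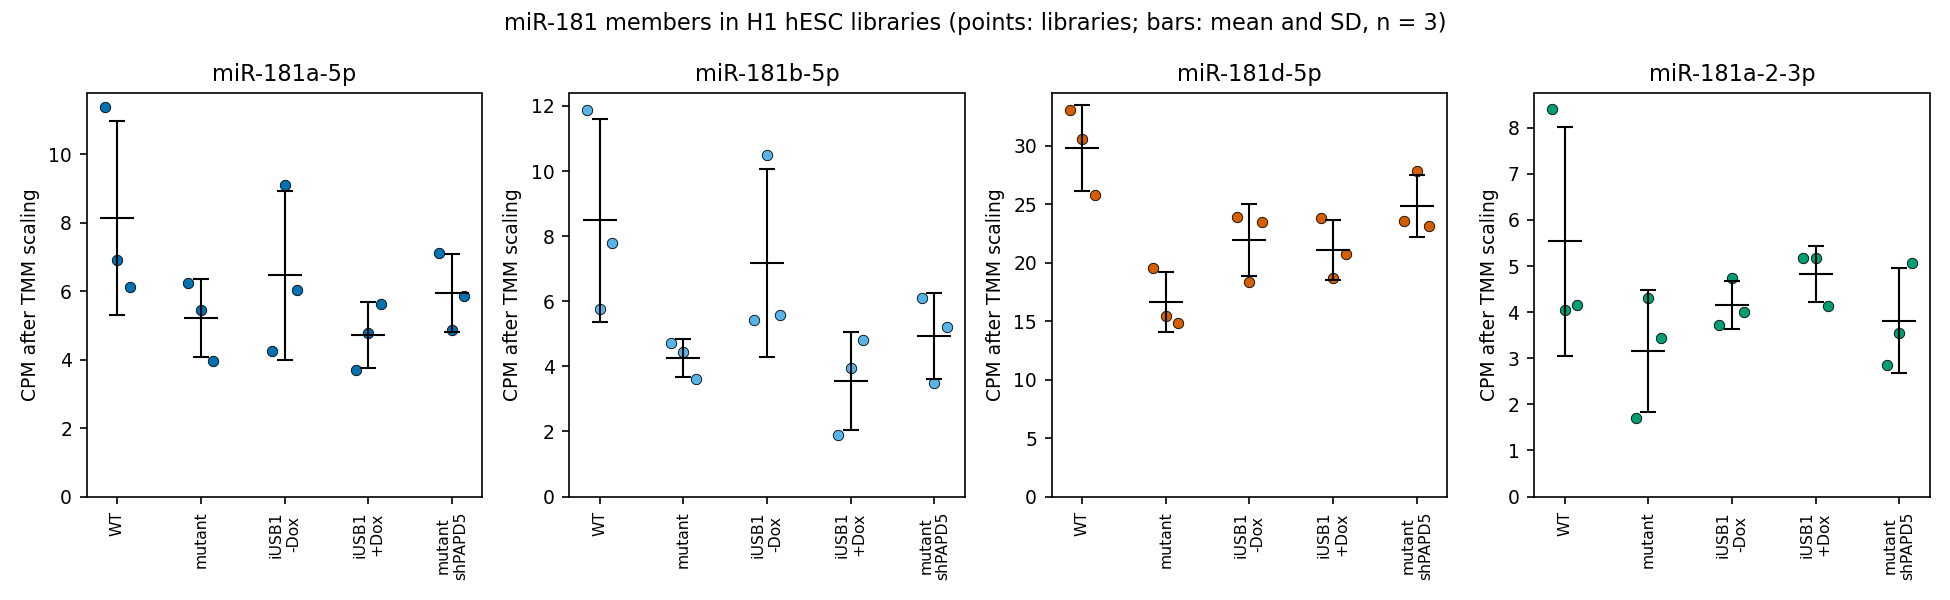
Level of 4 miR-181 members (y axes, CPM after TMM scaling, each from 0) in the 5 H1 hESC groups (x axis), with 1 point per library and bars for the mean and SD of 3 libraries. The mutant libraries of miR-181d-5p lie at 14.8 to 19.5 CPM, all below the WT libraries at 25.8 to 33.0, while the groups of the other members overlap in most comparisons.

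Loss of USB1 function in hESCs went with less miR-181d-5p. Its mutant libraries held 19.5, 15.5 and 14.8 CPM (mean 16.6 ± 2.54, n = 3), and none reached the lowest WT library. The change was -0.84 on the log2 scale (SE 0.19, edgeR adjusted p = 0.0119). It passed without any 1 library (-0.98 to -0.78) and with mutant library 1 and WT library 1 both left out (-0.90, adjusted p = 0.0108). Fitted on the mutant and WT libraries alone, the difference was -0.86 with an adjusted p of 0.133, and no miRNA of any kind was called in that fit. Of the 4 members that could be tested this 1 was called lower and 0 higher, where 4.51% of the 998 miRNAs tested were called lower and 11.5% had mutant libraries all below WT. A miRNA is called here when its Benjamini-Hochberg adjusted p over all miRNAs tested is under 0.05.

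miR-181c-3p, whose hairpin lies beside that of miR-181d, also fell in the mutant. It measured 3.60, 3.52 and 2.47 CPM there (mean 3.20 ± 0.630) against 6.14 to 7.65 CPM in WT, and the groups did not overlap. The log2 change was -1.05 (SE 0.24, adjusted p = 0.0146). The call was lost without WT library 3 (-0.96, adjusted p = 0.0553) and in the fit on mutant and WT alone (-1.06, adjusted p = 0.128).

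The members made at the other loci gave values below WT that did not pass the test. For miR-181b-5p, mutant libraries held 4.72, 4.42 and 3.60 CPM (mean 4.25 ± 0.581), all below the WT libraries, with a log2 difference of -0.996 (SE 0.37, adjusted p = 0.105). The miR-181a-5p libraries, at 6.23, 5.45 and 3.97 CPM, overlapped WT by a narrow margin (-0.64, SE 0.31, adjusted p = 0.225). miR-181a-2-3p ran from 1.70 CPM in mutant library 1 to 4.30 in library 2 (-0.80, SE 0.35, adjusted p = 0.169). WT library 1 carries much of these differences. Without it they were -0.69 for miR-181b-5p, -0.34 for miR-181a-5p and -0.38 for miR-181a-2-3p. With mutant library 1 left out as well, they were -0.74 (adjusted p = 0.425), -0.45 (0.556) and -0.07 (0.919). Counts of miR-181c-5p were 9, 3 and 2 in the mutant, below the filter on low counts; fitted without the filter, its difference was -0.19 (SE 0.88, adjusted p = 0.935). Over the 4 members tested the median difference was -0.82, and over all miRNAs tested 0.04. Of the 8 pluripotency miRNAs 4 rose in the mutant, all of the miR-302 cluster and among them miR-302b-3p (0.57, SE 0.16, adjusted p = 0.0380). From the miR-371 to miR-373 cluster 3 fell, among them miR-372-3p (-3.91, SE 0.95, adjusted p = 0.0279). Over all 998 miRNAs tested, 29 were called higher and 45 lower. The 8 pluripotency miRNAs summed to 180695 to 196115 CPM in WT and 253556 to 380928 in the mutant. The highest sum was that of mutant library 1. Of 7 miRNAs of neural, muscle, endoderm and liver cells, 6 were listed and tested. Of these 0 rose and 2 fell, where 4.51% of all miRNAs were called lower. The 2 were miR-9-5p (-0.93, SE 0.24, adjusted p = 0.0251) and miR-1-3p (-1.85, SE 0.34, adjusted p = 0.0047). The sum of this list was 1839 to 2470 CPM in WT, 784 to 1208 in the mutant, 995 to 1220 without Dox, 843 to 1119 with Dox and 1664 to 1965 with shPAPD5. The part of either marker list in the miR-181 values was not tested. In bulk RNA, fewer cells with a miRNA and less of it per cell cannot be told apart.

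The iUSB1 libraries were compared with WT and with each other to ask whether returning USB1 restored the members. All comparisons with WT share the WT libraries. miR-181d-5p stood between mutant and WT without Dox (23.9, 18.4 and 23.5 CPM, mean 21.9 ± 3.07) and with Dox (23.8, 18.7 and 20.7 CPM, mean 21.1 ± 2.56). Every library of both groups lay below every WT library, as 11.6% of all miRNAs did without Dox and 15.4% with Dox, but neither difference passed the test. It was -0.44 without Dox (SE 0.19, adjusted p = 0.209) and -0.50 with Dox (SE 0.19, adjusted p = 0.120). Against the mutant, the group without Dox was 0.40 higher (SE 0.19, adjusted p = 0.540), and its lowest library fell within the mutant range.

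Adding Dox changed no member by the test. The log2 difference of miR-181d-5p between +Dox and -Dox was -0.06 (95% interval -0.45 to 0.34). The group without Dox differed from WT by -0.44 (95% interval -0.84 to -0.05). These libraries therefore cannot tell no return of miR-181d-5p from a return of much of that gap. miR-181b-5p held 5.43, 10.5 and 5.59 CPM without Dox (mean 7.17 ± 2.88) and 1.88, 3.93 and 4.81 CPM with Dox (mean 3.54 ± 1.50), with no overlap, as for 7.11% of miRNAs. The difference of -1.02 (SE 0.37) had an unadjusted p of 0.0138 and an adjusted p of 0.994. None of the 998 miRNAs was called in this comparison by edgeR in the fit of all hESC groups (percent called 0), 45 had an unadjusted p under 0.05, and DESeq2 called 1.

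Against WT, miR-181b-5p with Dox was called lower (-1.27, SE 0.37, adjusted p = 0.0443), as 6.01% of all miRNAs tested were. This call rested on several libraries. It was lost without WT library 1 (-0.95, adjusted p = 0.177), WT library 3 (-1.34, 0.0714), +Dox library 1 (-0.96, 0.166) or +Dox library 2 (-1.37, 0.120), and with library totals in place of TMM (-1.29, 0.0580). It was also lost in the fit on the compared groups alone (-1.27, 0.0854) and with the replicate number as a block (-1.27, 0.0586). Deviations of same-numbered libraries from their group means correlated at 0.125 to 0.334 in this comparison. miR-181c-3p was called below WT both without Dox (-1.03, SE 0.24, adjusted p = 0.0254), where 3.41% of miRNAs were called lower, and with Dox (-0.90, SE 0.24, adjusted p = 0.0286). Its levels were 3.62, 3.35 and 2.80 CPM without Dox and 4.34, 3.28 and 3.01 CPM with Dox, all under the lowest WT library and overlapping the mutant range. The first call was lost without WT library 3 (-0.92, adjusted p = 0.0857) or -Dox library 1 (-1.10, 0.0714), 2 (-1.06, 0.0528) or 3 (-0.90, 0.181). The second was lost without WT library 2 (-0.95, 0.0519), WT library 3 (-0.81, 0.0893), +Dox library 2 (-0.86, 0.121) or +Dox library 3 (-0.80, 0.112). Both were also lost in the fit on the compared groups alone (adjusted p of 0.0892 and 0.0597) and with library totals (0.0507 and 0.0536).

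With PAPD5 knocked down in mutant cells, miR-181d-5p held 23.5, 27.9 and 23.1 CPM (mean 24.8 ± 2.63). These libraries all lay above the mutant libraries, as 8.52% of miRNAs did, and overlapped WT. The difference from the mutant was 0.58 (SE 0.19, 95% interval 0.18 to 0.98) with an unadjusted p of 0.0070 and an adjusted p of 0.300. The difference from WT was -0.26 (SE 0.19, 95% interval -0.66 to 0.13, adjusted p = 0.619). miR-181c-3p stood at 3.80, 4.65 and 4.92 CPM, above every mutant library (0.47 against the mutant, SE 0.24, adjusted p = 0.493). Unlike those of miR-181d-5p, these libraries all lay below WT, as 10% of miRNAs did (-0.58, SE 0.24, unadjusted p = 0.0278, adjusted p = 0.320). The other members were close to the mutant, with log2 differences of 0.18 for miR-181a-5p (95% interval -0.48 to 0.85), 0.21 for miR-181b-5p (-0.57 to 0.99) and 0.25 for miR-181a-2-3p (-0.49 to 0.996). No miRNA was called between shPAPD5 and mutant cells by edgeR in the fit of all hESC groups with TMM scaling (percent called 0). In this comparison 116 had an unadjusted p under 0.05, edgeR with library totals called 5 and DESeq2 called 8. None was called between shPAPD5 and WT in that fit either (percent called 0), where 130 had an unadjusted p under 0.05 and DESeq2 called 26. The comparison of -Dox with the mutant gave none in that fit (percent called 0), 89 under an unadjusted p of 0.05 and 2 by DESeq2.

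In K562, libraries of some arms lay higher and those of others lower after USB1 KO (see the plot of K562 levels). In control cells miR-181b-5p held 21.1, 20.5 and 24.7 CPM in libraries 1, 2 and 3 (mean 22.1 ± 2.31, n = 3), miR-181a-2-3p 17.5, 24.5 and 23.6 CPM (mean 21.9 ± 3.81) and miR-181a-5p 17.2, 21.2 and 17.9 CPM (mean 18.8 ± 2.15). These ranges overlapped. miR-181d-5p stood below all of them at 11.8, 11.8 and 15.8 CPM (mean 13.1 ± 2.29). miR-181c-5p was not listed in the control table and had 1, 4 and 2 counts in the KO table.

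**Figure D2:**
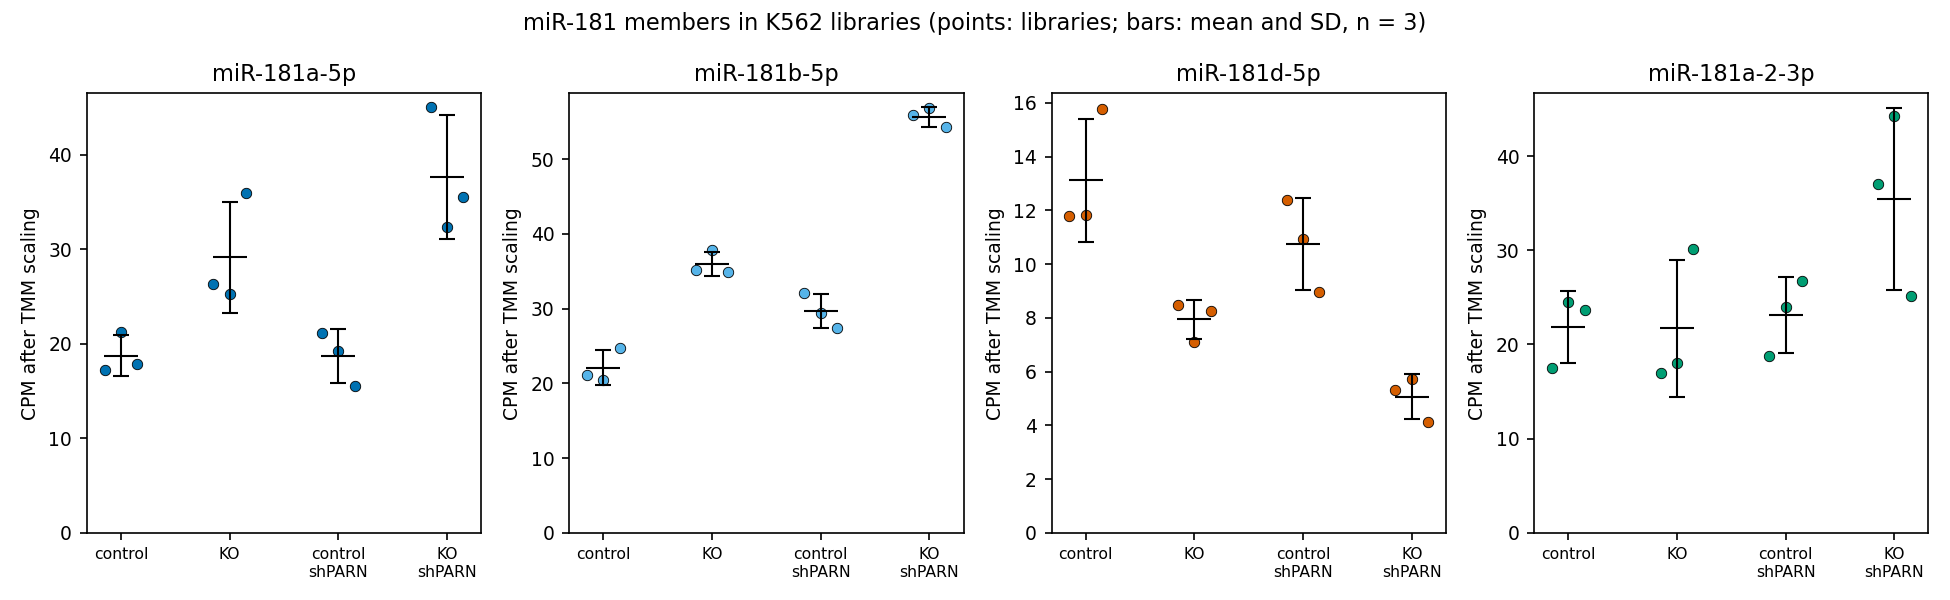
Level of 4 miR-181 members (y axes, CPM after TMM scaling, each from 0) in the 4 K562 groups (x axis), with 1 point per library and bars for the mean and SD of 3 libraries. miR-181b-5p lies at 54.2 to 56.8 CPM in KO shPARN cells and 20.5 to 24.7 in control cells, and miR-181d-5p at 4.12 to 5.74 against 11.8 to 15.8.

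After USB1 KO miR-181b-5p was higher, at 35.1, 37.8 and 35.0 CPM (mean 36.0 ± 1.62), above every control library, as were 13.7% of miRNAs. The log2 change was 0.70 (SE 0.16, adjusted p = 0.0216), and 1.93% of the 881 miRNAs tested were called higher. Leaving out control library 1 (0.67, adjusted p = 0.0954), control library 2 (0.65, 0.103), KO library 1 (0.72, 0.0864) or KO library 2 (0.66, 0.123) lost the call. Without control libraries 1 and 2, which hold pluripotency miRNAs, the difference was 0.52 (SE 0.26, adjusted p = 0.626), and the lone control library is then assumed to vary like the other groups. The part of these markers in the values was not tested. Of the neural, muscle, endoderm and liver miRNAs, 5 were tested after KO, of which 1 rose and 0 fell (median 0.35). The sum of those listed was 315 to 497 CPM in control, 1088 to 1590 in KO, 283 to 330 in control shPARN and 793 to 1505 in KO shPARN libraries. It covers 5 miRNAs in KO and 6 in each other K562 group. Their part was not tested either.

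miR-181a-5p followed the same direction without passing the test. Its KO libraries held 26.3, 25.2 and 35.9 CPM (mean 29.2 ± 5.88), all above the control libraries (0.63, SE 0.21, adjusted p = 0.127). miR-181d-5p stood at 8.47, 7.10 and 8.25 CPM (mean 7.94 ± 0.739), all below the control libraries, as were 15.8% of miRNAs (-0.73, SE 0.24, adjusted p = 0.110). The hairpin neighbour miR-181c-3p held 2.67, 4.98 and 3.63 CPM in control and 1.67, 0.394 and 1.46 CPM in KO, from 3 to 16 counts there, and the difference of -1.75 (SE 0.49) had an adjusted p of 0.0593 in edgeR and 0.0260 in DESeq2. Without KO library 1 it passed in edgeR too (-2.46, adjusted p = 0.0452). miR-181a-2-3p gave 16.9, 18.0 and 30.1 CPM, spread across the control range, and its difference of -0.04 (SE 0.28, 95% interval -0.63 to 0.56) took either sign with the scaling used.

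PARN knockdown in control cells changed no member by the test, and edgeR called 1.48% of all miRNAs. miR-181b-5p measured 32.0, 29.4 and 27.5 CPM (mean 29.6 ± 2.30), all above control, as for 11.1% of miRNAs, with a difference of 0.42 (SE 0.16, adjusted p = 0.247). miR-181d-5p held 12.4, 10.9 and 8.97 CPM (-0.29, SE 0.23, adjusted p = 0.654), and miR-181a-5p 21.2, 19.3 and 15.6 CPM (-0.0030, 95% interval -0.46 to 0.45). Both overlapped control. The sum of 8 fibroblast marker miRNAs, which include the abundant miR-21-5p and miR-22-3p, was 263944 to 359646 CPM in these libraries, 173143 to 304438 in KO shPARN libraries, 114876 to 143619 in control and 103507 to 129066 in KO. Its part in the comparisons with PARN knockdown was not tested.

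The widest split was in KO cells with PARN knockdown. There miR-181b-5p held 55.9, 56.8 and 54.2 CPM (mean 55.6 ± 1.29) and miR-181a-5p 45.0, 32.4 and 35.6 CPM (mean 37.6 ± 6.59), while miR-181d-5p held 5.31, 5.74 and 4.12 CPM (mean 5.06 ± 0.838). Against control cells with the same hairpin, miR-181a-5p rose by 1.01 (SE 0.21, adjusted p = 0.0107) and miR-181b-5p by 0.91 (SE 0.16, adjusted p = 0.0034), and miR-181d-5p changed by -1.09 (SE 0.24, adjusted p = 0.0140). None of these groups overlapped, as for 16.5% of miRNAs in the higher and 14.1% in the lower direction. Of the 4 members tested, 2 were called higher and 1 lower, where 4.99% of all miRNAs were called higher and 4.2% lower. Both control libraries with pluripotency miRNAs are outside this comparison. The calls of miR-181b-5p and miR-181d-5p remained without any 1 library. That of miR-181a-5p was lost without control shPARN library 2 (0.996, adjusted p = 0.0574) or KO shPARN library 1 (0.83, 0.0568). miR-181a-2-3p gave 37.1, 44.2 and 25.1 CPM against 18.7, 24.0 and 26.7 CPM, which overlapped (0.62, SE 0.27, adjusted p = 0.163). miR-181c-3p held 1.04, 0.733 and 0.902 CPM against 2.88, 2.76 and 2.13 CPM (-1.53, SE 0.48, adjusted p = 0.0590 in edgeR and 0.0259 in DESeq2).

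Within KO cells, miR-181b-5p was higher again with PARN knockdown (0.63, SE 0.16, adjusted p = 0.0236), where 9.08% of miRNAs were called higher. The call was lost without KO library 1 (0.60, adjusted p = 0.0965), KO library 2 (0.66, 0.0775), KO shPARN library 1 (0.58, 0.0804) or KO shPARN library 2 (0.60, 0.0771), in the fit on these groups alone (0.58, 0.0872), and with library totals (0.37, 0.190), which lowered the median change of all miRNAs by 0.24. That scaling turned the calls over all miRNAs from 80 higher and 50 lower to 30 higher and 77 lower. miR-181d-5p differed by -0.64 (SE 0.25, adjusted p = 0.0999), and by -0.90 with library totals (adjusted p = 0.0306). miR-181a-5p differed by 0.38 (SE 0.21, adjusted p = 0.273) and miR-181a-2-3p by 0.74 (SE 0.28, adjusted p = 0.0949), the latter passing without KO library 3 (1.02, 0.0327) or KO shPARN library 3 (0.91, 0.0384).

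From unmodified control to KO cells with PARN knockdown, the comparison that holds both losses, miR-181b-5p rose by 1.33 (SE 0.16, adjusted p = 0.0005) and miR-181a-5p by 1.01 (SE 0.21, adjusted p = 0.0067). miR-181d-5p changed by -1.37 (SE 0.24, adjusted p = 0.0023) and miR-181c-3p by -2.05 (SE 0.48, adjusted p = 0.0123). In this comparison 8.51% of all miRNAs were called higher and 5.56% lower, and library totals turned 75 higher and 49 lower into 46 higher and 92 lower. The call of miR-181c-3p was lost without control library 2 (-1.81, adjusted p = 0.0515) or KO shPARN library 2 (-1.92, 0.0522). With control libraries 1 and 2 both left out, the call of miR-181d-5p remained (-1.66, adjusted p = 0.0185), and the values of miR-181b-5p (1.14, 0.0566), miR-181a-5p (1.05, 0.158) and miR-181c-3p (-2.03, 0.153) did not pass. miR-181a-2-3p differed by 0.70 (SE 0.27, adjusted p = 0.108) and passed without KO shPARN library 3 (0.89, 0.0446).

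The interaction of both losses, which asks whether PARN knockdown acted differently in KO cells, passed for no member, where 1.82% of all miRNAs were called. Its values were 0.38 for miR-181a-5p (95% interval -0.26 to 1.03), 0.20 for miR-181b-5p (-0.28 to 0.69), 0.65 for miR-181a-2-3p (-0.18 to 1.48) and -0.36 for miR-181d-5p (-1.08 to 0.37).

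**Figure D3:**
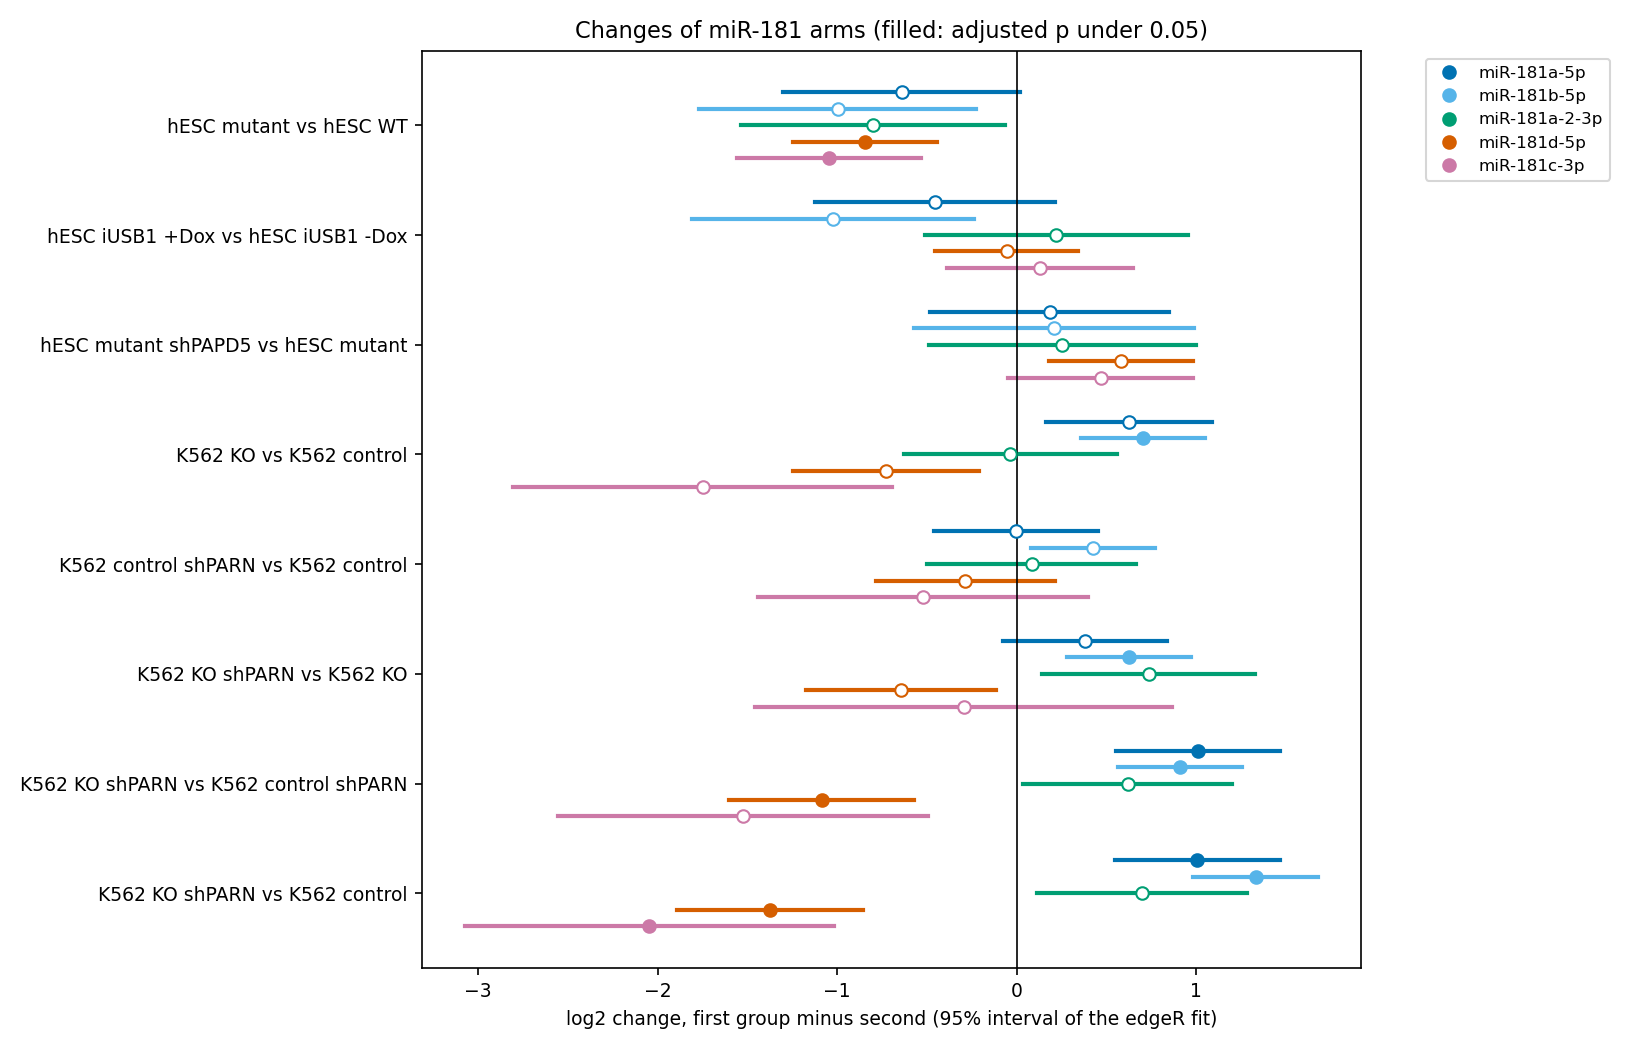
Log2 change (x axis, first group minus second) of 4 members and of miR-181c-3p in 8 comparisons (y axis), with lines for the 95% interval of the edgeR fit and filled points for an adjusted p under 0.05. All 5 arms lie below 0 for the hESC mutant, from -0.64 to -1.05, whereas in K562 KO shPARN cells against control miR-181a-5p and miR-181b-5p lie at 1.01 and 1.33 and miR-181d-5p and miR-181c-3p at -1.37 and -2.05.

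A ratio of members within a library needs no scaling between libraries, so the split in K562 was also read that way (see the plot of the ratio). The ratio of miR-181d-5p to miR-181a-5p was chosen after its values were seen, so its values are described here and no p is given for it. On the log2 scale it was -0.52 ± 0.33 in control, -1.85 ± 0.23 in KO, -0.79 ± 0.02 in control shPARN and -2.88 ± 0.34 in KO shPARN cells (SD, n = 3). The KO value differed from control by -1.33, and the KO shPARN value from control shPARN by -2.09. Groups did not overlap in either comparison. Control library 3, which lacks the pluripotency miRNAs, had the highest control ratio, -0.18, and libraries 1 and 2 had -0.55 and -0.84. The ratio in hESCs was 1.92 ± 0.33 in WT and 1.68 ± 0.20 in mutant cells, which overlapped (-0.24).

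**Figure D4:**
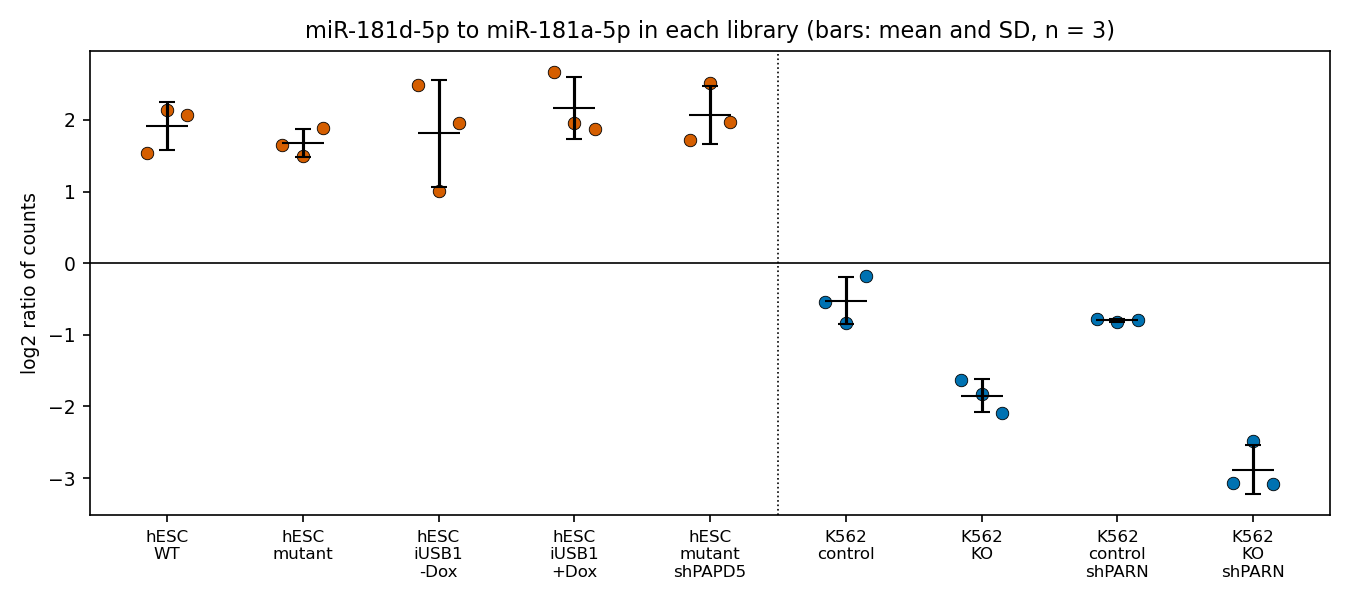
Log2 ratio of miR-181d-5p to miR-181a-5p counts (y axis) in each library of the 9 groups (x axis), with bars for the mean and SD of 3 libraries. The hESC groups average 1.68 to 2.17 and overlap one another, while the K562 groups step from -0.52 in control to -1.85 in KO and -2.88 in KO shPARN cells.

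Other ratios of arms were also compared. miR-181b-5p to miR-181a-5p differed between +Dox and -Dox (-0.64) and between control shPARN and control (0.44) without overlap, each with a two-sided exact permutation p of 0.1, the smallest that 3 libraries against 3 allow. KO and control overlapped in it (0.08, p = 0.7 by exact permutation). The ratio of miR-181a-2-3p to miR-181a-3p was 5.28 ± 0.81 in K562 control and 8.33 ± 0.97 in control shPARN cells (difference 3.05, exact permutation p = 0.1), resting on 2 to 8 counts of miR-181a-3p a library in control and 0 to 1 in control shPARN cells. miR-181a-5p to miR-181a-2-3p, also chosen after the values were seen, was -0.21 ± 0.19 in control and 0.46 ± 0.19 in KO, without overlap (0.67). Over the 33 ratio comparisons, which include those of the ratios chosen after the values were seen, the smallest Benjamini-Hochberg adjusted p was 0.367. As no exact p here can be under 0.1, none of them could have passed.

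Between the lines, the make-up of the 5p arms differed (see the stacked bars). miR-181d-5p took 64.3 ± 6.12% of the 5p counts in WT hESCs and 24.2 ± 2.53% in K562 control, while miR-181b-5p took 17.9 ± 4.05% and 40.9 ± 2.28%. After KO the miR-181d-5p share was 10.8 ± 1.11%, and 5.14 ± 0.840% with PARN knockdown added. It stayed between 61.5 and 71.4% on average in every hESC group. On a common scale of both lines, WT hESCs held 52.0 ± 5.52 CPM of miR-181d-5p and K562 control 12.2 ± 2.28 CPM (log2 difference 2.09, SE 0.25), and miR-181c-3p followed (1.76, SE 0.38, adjusted p = 0.0008). Both passed under each alternative tried, but 64.3% of 892 miRNAs were called between the lines, 30.4% higher and 34% lower, and line and culture cannot be told apart. miR-181a-2-3p was called lower in WT hESCs (-1.06, SE 0.36, adjusted p = 0.0187), a call lost with DESeq2 size factors (-0.74, 0.103), in DESeq2 itself (-0.74, 0.0953), without WT library 2 (-0.70, 0.163), WT library 3 (-0.72, 0.156) or control library 3 (-0.97, 0.0517), and without control libraries 1 and 2 (-1.24, 0.0575). miR-181b-5p (-0.47, SE 0.28, adjusted p = 0.148) passed with library totals (-0.89, 0.0349) and without WT library 1 (-0.75, 0.0318). miR-181a-5p differed by -0.29 (adjusted p = 0.383) and took the other sign with DESeq2 size factors. Those factors moved the median difference of all miRNAs by 0.33 and library totals by -0.47, which turned 271 higher and 303 lower calls into 318 and 240, or 213 and 379.

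**Figure D5:**
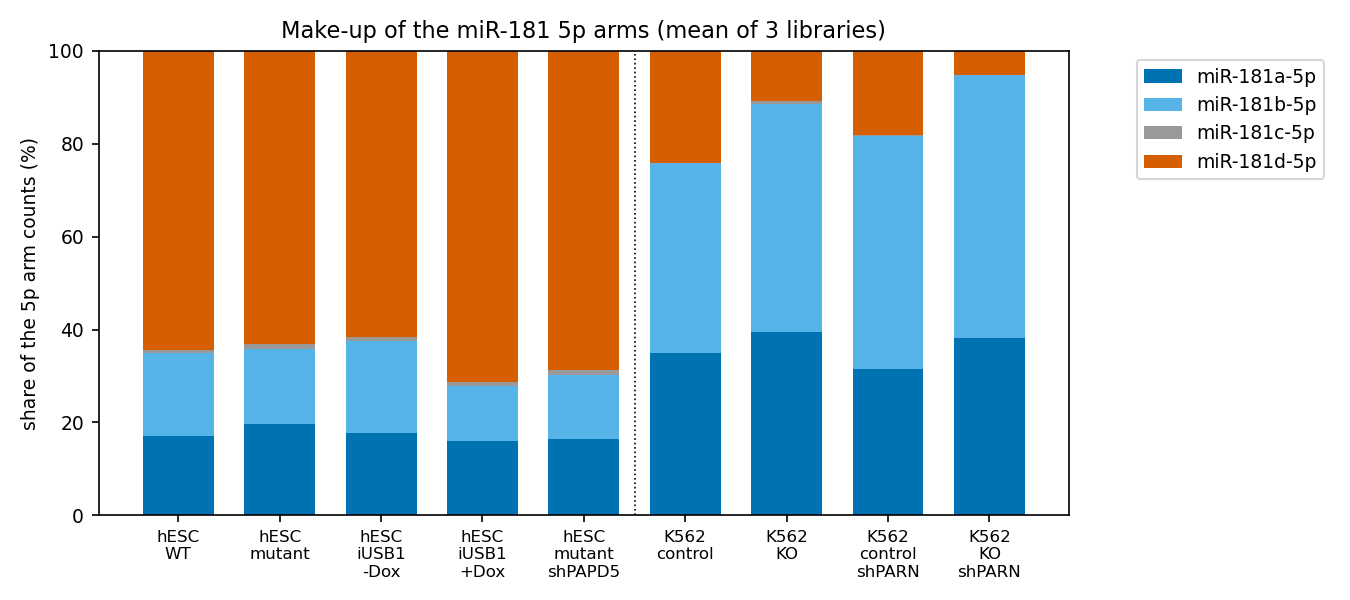
Share of the counts of the 4 miR-181 5p arms taken by each (y axis, %) in the 9 groups (x axis), as means of 3 libraries. miR-181d-5p takes 61.5 to 71.4% in the hESC groups and 24.2% in K562 control, 10.8% in KO, 18.1% in control shPARN and 5.14% in KO shPARN cells.

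The effect of USB1 loss itself was compared between the lines. For miR-181b-5p the value was below 0 in mutant hESCs and above 0 in K562 KO cells. In uninduced iUSB1 cells, which were not part of this fit, it was -0.25 against WT (SE 0.36, edgeR adjusted p = 0.787). The difference of -1.59 (SE 0.40) between the lines passed the test (adjusted p = 0.0408), where 3.14% of miRNAs were called and 0.785% in that direction. The call was lost without any 1 of 9 of the 12 libraries, which are all except WT library 2, mutant library 1 and KO library 3, with values of -1.93 to -1.30 over all 12. It was also lost with library totals (-1.88, adjusted p = 0.0836) and without K562 control libraries 1 and 2 (-1.38, 0.437). For miR-181d-5p no difference between lines was detectable (-0.02, 95% interval -0.81 to 0.78, adjusted p = 0.990). miR-181a-5p differed by -1.15 (SE 0.40, adjusted p = 0.183 in edgeR and 0.0311 in DESeq2). miR-181a-2-3p differed by -0.64 (95% interval -1.74 to 0.45).

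The remaining 3p arms were rare or partly unlisted. miR-181a-3p held 11 to 19 counts a library in WT hESCs and was not listed in the KO table. miR-181b-2-3p was listed in the K562 tables only, at 3 to 7 counts in control and 9 to 23 in KO shPARN libraries. miR-181b-3p had 2 to 3 counts in WT hESCs and miR-181d-3p 0 to 2, and neither was listed in a K562 table.

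The miRNAs whose levels most resembled miR-181a-5p were different in each line. Over 15 hESC libraries and 419 miRNAs with a mean of at least 3 log2 CPM, the closest were miR-509-3-5p (Pearson r 0.82, Spearman rho 0.61), miR-514a-3p (0.77 and 0.77), miR-27a-3p (0.76 and 0.63), miR-503-5p (0.73 and 0.63) and miR-125b-5p (0.73 and 0.59). In the 12 K562 libraries, among 417 miRNAs, they were miR-3157-5p (0.89 and 0.87), miR-7-1-3p (0.87 and 0.90), miR-551a (0.87 and 0.81), miR-548az-5p (0.85 and 0.78) and miR-1285-3p (0.85 and 0.81). Within the family, miR-181b-5p resembled it in both lines (r 0.88 in hESCs and 0.84 in K562), while miR-181d-5p had r 0.38 in hESCs and -0.80 in K562. The libraries fall into the study's groups and share depth and scaling, so these values are a description.

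Of 15 miRNAs known from blood lineages, 13 could be tested in hESCs. In the mutant 0 rose and 2 fell, with a median change of -0.39, where 4.51% of all miRNAs tested were called lower. The most abundant members gave values of -0.07 for miR-221-3p (adjusted p = 0.813), 0.09 for miR-222-3p (0.767), 0.23 for miR-126-3p (0.427) and -0.31 for miR-125a-5p (0.329). Those that fell were miR-125b-5p, which is active in blood stem cells (-1.08, SE 0.22, adjusted p = 0.0073), and miR-146a-5p, a brake on inflammatory signalling (-1.65, SE 0.35, adjusted p = 0.0111). In K562 14 could be tested, and after KO 1 rose, the erythroid miR-451a (0.70, SE 0.18, adjusted p = 0.0427), and 0 fell, with a median of -0.10. Over all miRNAs tested 1.93% were called higher. The summed level of the list was 47449 to 51186 CPM in control and 27875 to 34829 in KO, led by miR-126-3p (-0.98, SE 0.37, adjusted p = 0.192) and miR-10a-5p (-0.44, SE 0.19, adjusted p = 0.250), neither of which passed. From control to KO shPARN cells 2 rose and 2 fell, where 8.51% of all miRNAs were called higher and 5.56% lower. Library totals turned the calls over all miRNAs from 75 higher and 49 lower to 46 higher and 92 lower. miR-221-3p (0.68, SE 0.18, adjusted p = 0.0220) and miR-222-3p (0.91, SE 0.26, adjusted p = 0.0345), a pair that restrains the KIT receptor, were called higher. The myeloid miR-223-3p (-1.30, SE 0.21, adjusted p = 0.0014) and erythroid miR-144-3p (-1.42, SE 0.38, adjusted p = 0.0254) were called lower.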

How the data were processed

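Small RNA libraries were made from total RNA, 15 from hESCs and 12 from K562. The authors removed adapters (cutadapt 2.5), mapped to human miRBase with Bowtie2 2.2.9, allowing no mismatch in the alignment seed, and counted with SAMtools 1.3.1. Raw, unscaled counts per mature miRNA were deposited in 1 column per library, and 0 columns were left out here. Reads with added 3′ bases are counted only as far as that alignment kept them. Adaptor entries (0.00478 to 0.0179% of counts in hESCs, 0.0104 to 0.206% in K562) were removed. Each table lists only miRNAs with a count in its first column, so an unlisted miRNA is 0 there and unknown in the other columns.

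A miRNA entered a fit when every table in that fit listed it (1251 in hESCs, 1080 in K562, 1068 for the 4 groups compared across lines), and filterByExpr (minimum count 10, minimum total 15) left 998, 881 and 892. All groups of a line entered 1 quasi-likelihood fit (edgeR 4.0.16, TMM scaling, R 4.3.3). Calls were made at an adjusted p under 0.05 (Benjamini-Hochberg, over all miRNAs tested). Ratios had 0.5 counts added and were compared by two-sided exact permutation. Alternatives were DESeq2 1.42.0, its size factors, library totals, no filter, a CPM of at least 10 in 3 libraries, the compared groups alone, a replicate block, and each library left out. The fits were also run on counts simulated with their own estimated spread and no outlying library. Such counts cannot show how well the tests control error in these libraries. Same-numbered libraries were checked for shared deviations from their group means. All 3 pairs correlated over 0.1 for +Dox with WT (0.125 to 0.334) and for KO shPARN with control shPARN (0.316 to 0.541). The labels give no pairing. Libraries of different numbers were not compared in this way, so these values do not show a pairing.

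Named miRNAs were all members, the other arms of their hairpins, miRNAs sharing the seed, the 5 closest to miR-181a-5p in each line, and up to 4 of each list. miR-125b-5p, miR-146a-5p, miR-144-3p, miR-221-3p, miR-222-3p, miR-223-3p, miR-372-3p and miR-451a were named for passing the test, after their values were seen. The members and lists were chosen with earlier results of these data known.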

Additional observations from a re-analysis of the deposited data

Results flagged for a closer look

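The change of miR-181b-5p with USB1 loss differed between the lines by -1.59 on the log2 scale (hESC mutant against WT minus K562 KO against control, SE 0.40, edgeR adjusted p = 0.0408, 3 libraries a group). The call was lost in 12 of 20 alternatives. All 3 mutant libraries lay below all 3 WT libraries, as for 11.5% of the miRNAs tested in hESCs. All 3 KO libraries lay above all 3 control libraries, as for 13.7% of those tested in K562. Uninduced iUSB1 cells (-Dox), which also carry the mutation, held 5.43, 10.5 and 5.59 CPM and overlapped WT (-0.25, SE 0.36, edgeR adjusted p = 0.787). Against the mutant they differed by 0.74 (SE 0.37, edgeR adjusted p = 0.540). The difference was -1.38 without K562 control libraries 1 and 2 (adjusted p = 0.437).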

How the results depend on the processing

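Over the miR-181 arms tested, leaving out 1 library ended a call 37 times and other settings did so 21 times. The cause was not tested. Apart from +Dox with WT and KO shPARN with control shPARN, no 2 groups had all their same-numbered pairs correlated over 0.1. Single pairs did, such as mutant with -Dox for numbers 1 (0.485) and 2 (0.504) but not 3 (-0.233). With the pairs of those exceptions included, 13 of 30 same-numbered pairs correlated over 0.1 in hESCs and 5 of 18 in K562. With the replicate number as a block, miR-181b-5p lost its call for +Dox against WT (-1.27, adjusted p = 0.0586) and for the difference between lines (-1.57, 0.0719), and the interaction had 10 calls. No other call on an arm changed with it.

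Fitted on the compared groups alone, the number of calls over all miRNAs was 0 for mutant against WT, 8 for -Dox against WT, 3 for +Dox against -Dox, 4 for shPAPD5 and 1 for -Dox against the mutant, 27 for control shPARN against control, and 50 and 49 for KO shPARN against KO and against control shPARN. DESeq2 gave 26 for shPAPD5 against WT, 1 for +Dox against -Dox, 8 for shPAPD5 and 2 for -Dox against the mutant, 36 for control shPARN against control, 129 for KO shPARN against control shPARN, 37 for the interaction and 48 between lines. Library totals gave 28 for -Dox against WT, 5 for shPAPD5 against the mutant, 25 for control shPARN against control (8 higher and 17 lower, against 11 and 2), 7 for the interaction and 13 between lines. DESeq2 size factors gave 7 for the interaction. No filter gave 25 for -Dox against WT, and a CPM of at least 10 gave 2 for shPAPD5 against WT, 21 for control shPARN against control and 1 for the interaction. Without K562 control libraries 1 and 2, chosen after seeing the data, calls numbered 8 for KO, 0 for control shPARN and 14 for KO shPARN against control, 0 for the interaction and 13 between lines.

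Values near 0 changed sign. For miR-181a-2-3p, KO against control was 0.0045 with DESeq2 size factors, 0.0818 with library totals, 0.0237 with a CPM of at least 10 and 0.0109 on the groups alone, and control shPARN against control was -0.176 with library totals and -0.0193 without control libraries 1 and 2. For miR-181a-5p, control shPARN against control was 0.0151 with DESeq2 size factors, 0.0189 with DESeq2 and 0.0697 without those libraries, and WT against K562 was 0.0380 and 0.0420 with the first 2. The line difference of miR-181d-5p was 0.289 without those libraries. The ratio of miR-181c-5p to miR-181c-3p (shPAPD5 against mutant) was 0.0199 with 5 counts added, and that of miR-181a-2-3p to miR-181a-3p (+Dox against -Dox) -0.0115 with none.

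With each library left out in turn, calls ran from 38 to 87 for mutant, 13 to 37 for -Dox, 25 to 61 for +Dox and 0 to 9 for shPAPD5 against WT, 16 to 34 for KO, 1 to 25 for control shPARN and 73 to 112 for KO shPARN against control, 38 to 139 for KO shPARN against KO, 38 to 92 against control shPARN, 0 to 27 for the interaction and 13 to 29 between lines. miR-181a-2-3p ran from -0.317 to 0.113 for KO against control, -0.0471 to 0.211 for control shPARN, -0.380 to 0.238 for +Dox and -0.576 to 0.0186 for -Dox against WT, and -0.0092 to 0.572 for shPAPD5 against mutant. miR-181a-5p ran from -0.116 to 0.102 for control shPARN, -0.556 to 0.0544 for WT against K562 and -0.0129 to 0.565 for -Dox against mutant. miR-181b-5p ran from -0.625 to 0.0851 for -Dox against WT. miR-181c-3p ran from -0.838 to 0.408 for KO shPARN against KO, -0.326 to 0.916 for the interaction, -0.0678 to 0.210 for +Dox against -Dox and -0.0951 to 0.160 for -Dox against mutant. miR-181d-5p ran from -0.287 to 0.108 between lines and -0.170 to 0.0016 for +Dox against -Dox. Among ratios, miR-181a-2-3p to miR-181a-3p ran from -0.524 to 0.845 (+Dox against -Dox), -0.501 to 0.749 (shPAPD5 against mutant) and -1.10 to 0.151 (mutant against WT), miR-181a-5p to its 3p arms from -0.297 to 0.176 (control shPARN), -0.409 to 0.325 (shPAPD5) and -0.283 to 0.319 (mutant), and miR-181a-5p to miR-181a-2-3p from -0.334 to 0.142, -0.464 to 0.389 and -0.315 to 0.509 in the same comparisons. miR-181b-5p to miR-181a-5p ran from -0.0605 to 0.262 (KO against control) and -0.0692 to 0.0833 (shPAPD5), miR-181c-5p to miR-181c-3p from -0.643 to 0.850 (shPAPD5), and miR-181d-5p to miR-181a-5p from -0.0524 to 0.687 (+Dox against -Dox).

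The planned ratios of miR-181b-5p and miR-181d-5p to their 3p arms could not be computed, since a table in each comparison does not list one arm. KO library 3 gave 3 counts of miR-181c-3p, and at that depth small changes of the rarer arms were not detectable.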
